A study of Mus musculus with 6 samples.

Results

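The 10 genes described here are linked to growth or to microtubules in young neurons: Gap43, Stmn1, Stmn2, Stmn3, Nrep, Clasp1, Clasp2, Dcx, Tubb3 and Dpysl3. They were chosen by name as growth and microtubule genes, with the difference between pup exposure and control exposure in these libraries already known. The values of that comparison are therefore given as a description, and the adjusted p-values beside them are not independent evidence. All 10 were found among the 38561 genes of the deposited table and all 10 were among the 15498 genes tested.

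The tissue was the vomeronasal organ, taken from males of the outbred CD-1 stock that had been exposed to pups (3 libraries, here called pup libraries) or had a control exposure (3 libraries, control libraries) whose nature the labels do not describe. No genotype or other treatment is labelled. The age of the mice, and whether each library came from its own animals, are not given in the labels, so p-values cover only the spread from library to library, part of which may be technical. Each library holds RNA that came down with ribosomes bound by an antibody against the phosphorylated form of ribosomal protein S6, a mark that rises on ribosomes of recently active neurons. Libraries of unprecipitated RNA were not analysed here, and in such bulk samples fewer cells of a type and less RNA per cell cannot be told apart.

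The vomeronasal epithelium replaces its sensory neurons throughout life. New neurons extend an axon to the accessory olfactory bulb, and while it grows they express the growth cone protein Gap43 and proteins that control how microtubules grow and shrink. Stathmins bind free tubulin and promote shrinkage, CLASP proteins sit on growing microtubule ends and rescue them, and doublecortin stabilises the lattice. Nearly all of these proteins are also found outside immature neurons, so a count of their RNA is not a count of young cells.

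Library totals were 10590716 to 11240065 counts in the control libraries and 18199476 to 20871266 in the pup libraries. The 15 matched markers of mature vomeronasal neurons held 0.523% to 0.799% of counts in the control libraries and 0.516% to 0.784% in the pup libraries, while 11 gland genes held 26.5% to 55.2% of a library. The gland share was highest in control replicate 3 and lowest in pup replicate 2. Omp, the marker of mature sensory neurons, overlapped between groups at 768 to 922 and 664 to 831 CPM. CPM here are read counts scaled to a common library size with TMM factors, which adjust for such differences in composition. The 11 gland genes had a median log2 fold change of -0.58, with 9 of 11 negative, and 0 of them separated the groups.

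Of the genes, 5 lay lower in every pup library than in every control library. In the order of the size of the difference they were Nrep, Clasp2, Gap43, Stmn1 and Stmn2, and the other 5, Dpysl3, Tubb3, Stmn3, Dcx and Clasp1, overlapped between groups. Over all genes tested, 9.6% lay lower in every pup library and 10.1% higher; because the members were chosen on this contrast, nothing is read from that comparison. A negative log2 fold change, pup exposure over control exposure, was found in 8 of the 10 genes and a positive one in 2, where 51.5% of all tested genes had a positive one. The median was -0.61 over the 10 genes and 0.030 over all genes tested.

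**Figure D1:**
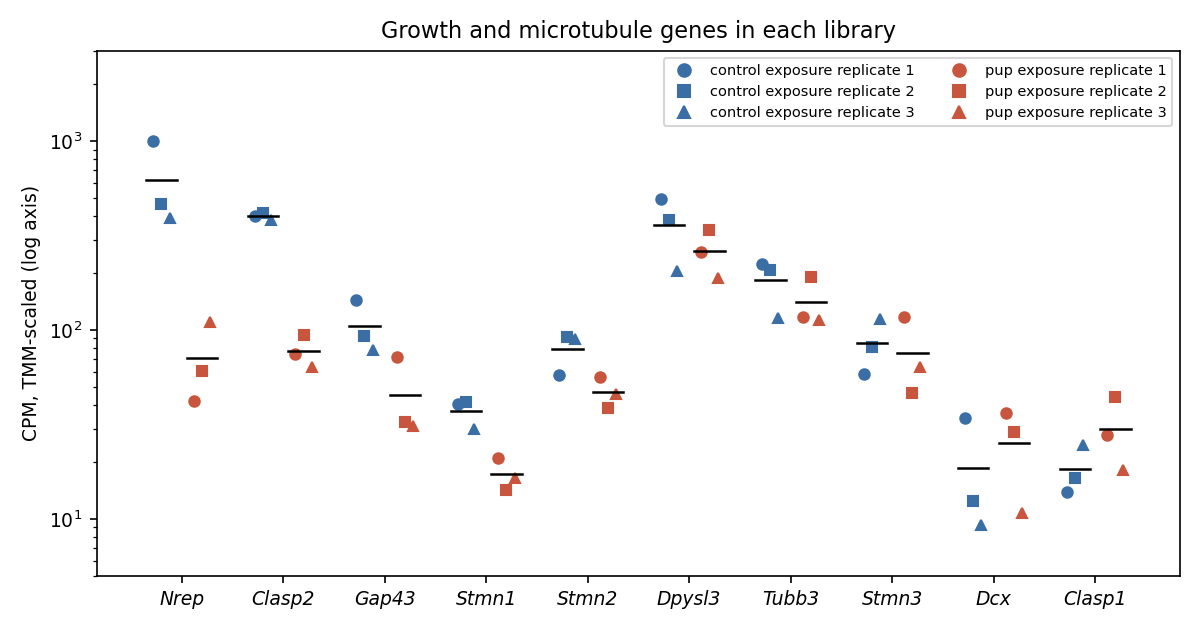
TMM-scaled CPM on a log axis for the 10 genes in each of the 6 libraries; blue symbols are control exposure, red symbols pup exposure, the symbol shape gives the replicate number, and the black line is the mean of 3 libraries. Nrep and Clasp2 show the widest gap between groups, while Dcx and Clasp1 overlap. Mean CPM is lowest for Dcx and Clasp1 in the control libraries and for Stmn1 in the pup libraries.

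At an adjusted p of 0.05, edgeR's quasi-likelihood test called 0 of the 10 genes in either direction, as it called 0 of all genes tested (0% higher and 0% lower). Of the 10 genes, 4 were lower (Clasp2, Nrep, Stmn1 and Gap43) and 0 higher when p was left unadjusted (under 0.05), against 723 lower and 978 higher of all genes. Other fits called Nrep and Clasp2 lower and none of the 10 higher. This held in DESeq2, which called 0.626% of its genes lower and 0.406% higher, and in limma-voom (0.0452% lower and 0.00645% higher). It also held in edgeR without a filter on low counts (0.247% lower and 0.255% higher). Ranked by unadjusted p among all 15498 genes, Clasp2 was at rank 7 and Nrep at rank 9.

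Clasp2 (ENSMUSG00000033392), a plus-end protein that is abundant in neurons and links microtubules to the cell cortex and the Golgi apparatus, had 403, 415 and 383 CPM in control replicates 1 to 3. It had 74.9, 93.7 and 63.2 CPM in the pup replicates. The control libraries lay close together, with a coefficient of variation of 3.98%, the smallest of the 10 genes in either group, and no pup library came near them. The means were 400 ± 15.9 and 77.3 ± 15.4 CPM (SD, n = 3 each), 5.18-fold lower in the pup libraries. The log2 fold change was -2.37 (SE 0.38, edgeR adjusted p = 0.105). With any single library left out it ran from -2.52 to -2.24. Its adjusted p over the alternatives that gave one ran from 2.98e-08 in DESeq2 to 0.761 in edgeR without pup replicate 2.

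Clasp1 (ENSMUSG00000064302), the paralog of Clasp2 with the same plus-end activity, showed no such gap. Clasp1 had 13.9, 16.5 and 24.5 CPM in the control libraries and 27.7, 43.9 and 18.2 CPM in the pup libraries, so the groups overlapped, with pup replicate 2 highest. The log2 fold change was 0.71 (SE 0.43), and 0.35 without pup replicate 2. Raw counts of the paralogs can be divided within each library, which removes any scaling between libraries. In all 12 such ratios of gene pairs were computed, chosen after the data were seen; 7 lay lower in every pup library and 5 overlapped. There were 29.0, 25.2 and 15.6 counts of Clasp2 for each count of Clasp1 in the control libraries, and 2.70, 2.14 and 3.48 in the pup libraries. The mean of this ratio was 8.40-fold lower in the pup libraries, and the ranges were far apart. Of the 50-base words in the longest annotated transcript, 0% of those of Clasp2 and 1.42% of those of Clasp1 occurred in a transcript of another gene.

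On GRCm38, GENCODE M21 places Clasp2 on chromosome 9 from 113741473 to 113919682 (plus strand) and Clasp1 on chromosome 1 from 118389058 to 118612678 (plus strand). The deposited counts are per gene and do not tell which of the 3 Clasp2 promoters listed in RefSeq was used. Of the 10 genes, 4 had promoters among the RefSeq promoters counted here, 7 promoters in all. Any RefSeq promoter of Nrep or Dpysl3 was left out before counting, and others may be missing too. The count therefore does not show that the remaining genes lack one. The first Clasp2 promoter starts at the annotated gene start and is shown because Clasp2 has the tightest separation between groups. It is set against the promoters of Stmn3 and Tubb3, neuronal genes whose groups overlapped. Sequences are from RefSeq (GRCm38.p6), 250 bases before to 50 after the start, 5′ to 3′ on the gene's strand. Capitals mark matches on either strand to the E-box CANNTG, the CCAAT box, the TATA box TATAAA, the GC box GGGCGG, the cyclic AMP response core TGACG, the Egr site GCGGGGGCG or 1 spelling of the serum response core. The motifs and the windows shown were chosen with the data and the sequences in view.
Clasp2, chr9:113741223-113741522 (plus strand): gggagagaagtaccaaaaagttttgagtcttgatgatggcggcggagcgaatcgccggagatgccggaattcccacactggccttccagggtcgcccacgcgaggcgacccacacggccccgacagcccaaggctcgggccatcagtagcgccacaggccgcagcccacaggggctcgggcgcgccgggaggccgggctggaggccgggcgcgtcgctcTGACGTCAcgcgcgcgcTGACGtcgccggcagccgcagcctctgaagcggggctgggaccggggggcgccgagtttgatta
Stmn3, chr2:181314451-181314750 (minus strand): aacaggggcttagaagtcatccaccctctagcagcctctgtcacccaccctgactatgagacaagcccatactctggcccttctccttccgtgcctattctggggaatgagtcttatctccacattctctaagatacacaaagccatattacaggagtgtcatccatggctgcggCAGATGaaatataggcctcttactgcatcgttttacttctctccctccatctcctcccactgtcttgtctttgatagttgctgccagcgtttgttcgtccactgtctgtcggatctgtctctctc
Tubb3, chr8:123411303-123411602 (plus strand): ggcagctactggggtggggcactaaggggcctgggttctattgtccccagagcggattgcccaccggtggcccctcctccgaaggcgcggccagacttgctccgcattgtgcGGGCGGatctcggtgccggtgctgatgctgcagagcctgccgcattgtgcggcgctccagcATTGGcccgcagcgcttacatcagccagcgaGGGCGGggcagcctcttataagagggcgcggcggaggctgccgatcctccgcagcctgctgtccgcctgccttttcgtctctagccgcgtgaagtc

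The Clasp2 window was rich in G and C (70% of bases, against 67.3% for Tubb3 and 49.7% for Stmn3) and held 3 matches to TGACG, of which a pair overlap within the full palindrome TGACGTCA. That palindrome occurred in 1.79% and TGACG in 20.8% of 32851 RefSeq mouse promoter windows of the same length. The Stmn3 window held 1 E-box, a motif found in 72.3% of windows. The Tubb3 window held 2 GC boxes (35.7% of windows) and 1 CCAAT box on the minus strand (37.4%), and none of the 3 windows held TATAAA (13.6%), the Egr site (2.91%) or the serum response core (0.0639%). The full palindrome was added to the search after the TGACG matches were seen. These matches describe the letters of the windows and say nothing of binding.

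Nrep (ENSMUSG00000042834, chr18:33437019-33464029 on the minus strand, also called P311) encodes a small protein described in regenerating nerve and known in myofibroblasts and smooth muscle as well. It had 1001, 464 and 391 CPM in the control libraries and 42.3, 60.4 and 110 CPM in the pup libraries. Control replicate 1 was far above its group, but the lowest control library was still well above the highest pup library. The means were 619 ± 334 and 70.9 ± 35.1 CPM (SD, n = 3 each), 8.73-fold lower in the pup libraries, with a log2 fold change of -3.13 (SE 0.54, edgeR adjusted p = 0.148). Without control replicate 1 it was -2.59, and without pup replicate 3 it was -3.60. The adjusted p over the alternatives that gave one ran from 1.40e-07 in DESeq2 to 0.831 in edgeR without pup replicate 2. Smooth muscle markers, summed, overlapped between groups at 1049 to 1576 CPM and 1028 to 1211 CPM, with the highest value in control replicate 1. Their part in the Nrep difference was not tested.

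Gap43 (ENSMUSG00000047261, chr16:42248442-42340651 on the minus strand), the growth-associated membrane protein that marks immature vomeronasal neurons, had 144, 92.6 and 78.6 CPM in the control libraries and 72.2, 32.3 and 31.0 CPM in the pup libraries. The groups did not overlap, but pup replicate 1 lay just under the lowest control library. The means were 105 ± 34.6 and 45.2 ± 23.4 CPM (SD, n = 3 each), with a log2 fold change of -1.22 (SE 0.44, edgeR adjusted p = 0.424), and -1.73 without pup replicate 1. For each count of Omp, the mature marker, there were 0.157, 0.102 and 0.102 counts of Gap43 in the control libraries and 0.0923, 0.0487 and 0.0372 in the pup libraries. The ratio of Gap43 to Omp was therefore lower in all 3 pup libraries, 2.03-fold in the mean. This ratio describes Gap43 and Omp only and was not computed for Dcx, another marker of young neurons. The CPM of Dcx overlapped between groups, with a log2 fold change of 0.43.

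Stmn1 (ENSMUSG00000028832, chr4:134468320-134473843 on the plus strand), the cytosolic stathmin of growing and dividing cells, had 40.3, 41.4 and 29.8 CPM in the control libraries and 20.9, 14.2 and 16.5 CPM in the pup libraries. All 3 pup libraries lay lower, with a log2 fold change of -1.11 (SE 0.37, edgeR adjusted p = 0.418). Its level is uncertain, because 36.5% of its 50-base words occurred in a transcript of another gene. Nearly all of these words belonged to Gm11223, a processed pseudogene on chromosome 4 from 69925630 to 69926079. Over its 450 bases Gm11223 differs from the Stmn1 transcript, from start codon to stop codon, at 1 base (99.8% identity). The stretch around that base, positions 244 to 303 of the matched 450 in GENCODE M21, is shown because a read lying wholly elsewhere in the coding sequence cannot tell them apart; the capital marks the difference.
Stmn1: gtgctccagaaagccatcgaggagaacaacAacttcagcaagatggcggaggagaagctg
Gm11223: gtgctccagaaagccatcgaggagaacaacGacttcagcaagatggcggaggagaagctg

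The pseudogene row held more counts than Stmn1 itself in every library. There were 3.41, 3.27 and 3.93 counts of Gm11223 for each count of Stmn1 in the control libraries and 3.40, 3.58 and 4 in the pup libraries, a nearly fixed ratio that overlapped between groups. Gm11223 went from 130 ± 11.2 to 62.6 ± 10.5 CPM (SD, n = 3 each), with a log2 fold change of -1.05 (SE 0.35). When both rows were counted as 1 gene, an alternative chosen after seeing the data, the log2 fold change was -1.07 (edgeR adjusted p = 0.422). The difference between groups was thus close to that of the Stmn1 row alone, while the level of Stmn1 in the table is a lower bound if reads of the coding sequence were assigned to the pseudogene.

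Stmn2 (ENSMUSG00000027500, chr3:8509360-8561606 on the plus strand), the membrane-bound stathmin of growth cones also called SCG10, had 57.5, 91.8 and 89.5 CPM in the control libraries and 56.5, 38.8 and 45.7 CPM in the pup libraries. The groups touched, with control replicate 1 and pup replicate 1 almost level, and the log2 fold change was -0.76 (SE 0.36, edgeR adjusted p = 0.465). Stmn3 (ENSMUSG00000027581, chr2:181306459-181314500 on the minus strand), the related stathmin SCLIP of neurites, had 58.2, 81.6 and 115 CPM in the control libraries and 117, 46.2 and 63.6 CPM in the pup libraries. The ranges overlapped, with the highest pup library just above the highest control library, and the log2 fold change of -0.16 (SE 0.44) had no stable sign. It was 0.15 with library totals only, 0.034 with scaling to mature neuron markers, 0.075 without control replicate 3 and 0.12 without pup replicate 2.

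Dcx (ENSMUSG00000031285, chrX:143855842-143933311 on the minus strand), doublecortin, had 34.3, 12.5 and 9.22 CPM in the control libraries and 36.1, 28.8 and 10.7 CPM in the pup libraries. It varied more within the control group than any other of the 10 genes (coefficient of variation 73.2%), and replicate 3 was the lowest library of each group. The log2 fold change was 0.43 (SE 0.57), which became 1.21 without control replicate 1, 0.072 without control replicate 3 and 0.077 without pup replicate 1. The lowest raw count of any of the 10 genes in a library was the 59 of Dcx in control replicate 3. Set against Gap43, the other marker of young neurons in the set, Dcx differed in direction. There were 4.2, 7.43 and 8.53 counts of Gap43 for each count of Dcx in the control libraries and 2.00, 1.12 and 2.90 in the pup libraries. These ratios did not overlap between groups, although the CPM of Dcx did.

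Tubb3 (ENSMUSG00000062380, chr8:123411424-123422015 on the plus strand), the neuronal beta-tubulin, had 224, 208 and 115 CPM in the control libraries and 117, 191 and 113 CPM in the pup libraries. Dpysl3 (ENSMUSG00000024501, chr18:43320984-43438286 on the minus strand), the collapsin response mediator CRMP4 that binds tubulin and actin in growth cones, had 491, 382 and 205 CPM and 259, 338 and 188 CPM. Both overlapped between groups, both were lowest in replicate 3 of each group, and their log2 fold changes were -0.38 (SE 0.41) and -0.46 (SE 0.44). The proportion of Tubb3 to Dpysl3 was similar in all libraries: for each count of Dpysl3 there was 0.456 to 0.561 of a count of Tubb3 in the control libraries and 0.450 to 0.600 in the pup libraries.

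**Figure D2:**
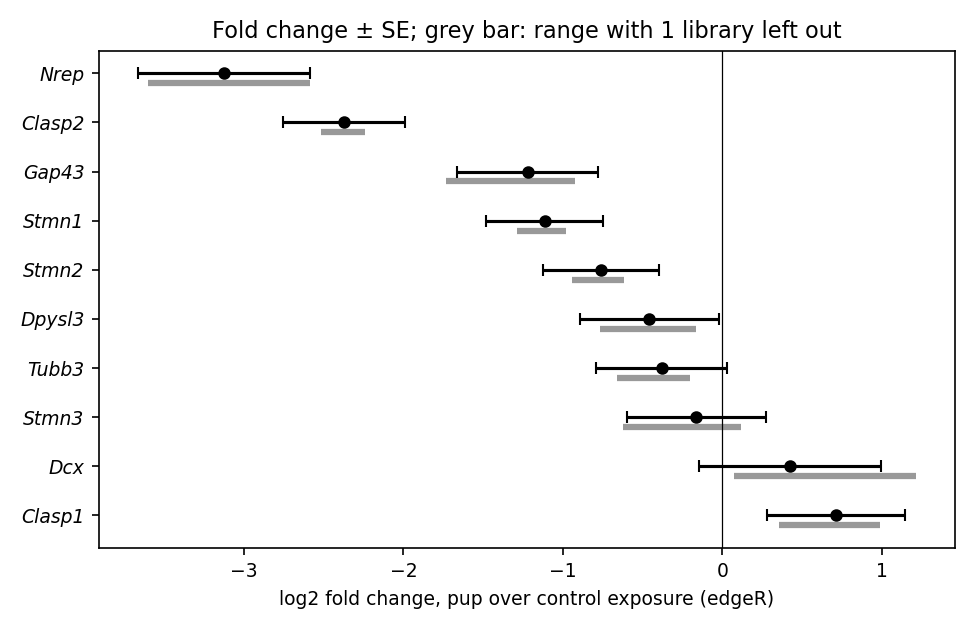
Log2 fold change of pup exposure over control exposure for the 10 genes in edgeR, with the standard error as a black bar and, in grey, the range when each of the 6 libraries is left out. The grey range stays below 0 for Nrep, Clasp2, Gap43, Stmn1, Stmn2, Dpysl3 and Tubb3, crosses 0 for Stmn3 and stays above 0 for Dcx and Clasp1.

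Levels were compared between genes as CPM per kilobase of annotated exon, a scale that would understate a gene such as Clasp1 if part of its 21844 bases of exon is not used here. In the control libraries the mean level per kilobase was highest for Nrep (158 ± 85.3), followed by Tubb3 (97.7 ± 31.4), Stmn3 (74.7 ± 25.0), Gap43 (69.1 ± 22.7) and Dpysl3 (54.4 ± 21.8, SD, n = 3 each). Neighbours among these 5 overlapped over the libraries. Clasp2 came next at 26.0 ± 1.04, separate from Dpysl3 above and from Stmn1 (19.3 ± 3.32) below, then Stmn2 (14.2 ± 3.42), Dcx (1.48 ± 1.08) and Clasp1 (0.838 ± 0.254, SD, n = 3 each). In the pup libraries Tubb3 (75.1 ± 23.7) and Stmn3 (66.6 ± 32.6) led, Nrep stood below Gap43 at 18.1 ± 8.97, and Clasp2 was at 5.02 ± 1.0 (SD, n = 3 each). Clasp2 then lay below Stmn2 without overlap, where in the control libraries it had lain above it. The place of Stmn1 rests on its own row alone: with the counts of Gm11223 added, over the same length, its level was 87.0 ± 9.10 in the control and 41.5 ± 7.07 in the pup libraries (SD, n = 3 each), above Clasp2 in every library of both groups. Dcx and Clasp1 were lowest in both groups and overlapped with each other in both.

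Ratios to Omp within a library need no scaling, but they reuse the same counts. They were computed only for members that already lay lower in every pup library, so they are a description and not independent evidence. For each count of Omp there were 0.437 to 0.499 counts of Clasp2 in the control libraries and 0.0761 to 0.141 in the pup libraries, 4.45-fold lower in the mean. The ratio of Nrep to Omp was 0.509 to 1.09 and 0.0540 to 0.132, and that of Stmn1 to Omp 0.0389 to 0.0457 and 0.0199 to 0.0267. None of these 3 ratios overlapped between groups. With library sizes set to the summed counts of the mature neuron markers, the log2 fold change was -2.15 for Clasp2, -2.84 for Nrep, -1.08 for Gap43 and -0.93 for Stmn1. That scaling moved the median of all genes to 0.27, and library totals alone moved it to 0.31, so the values are to be read against those medians.

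**Figure D3:**
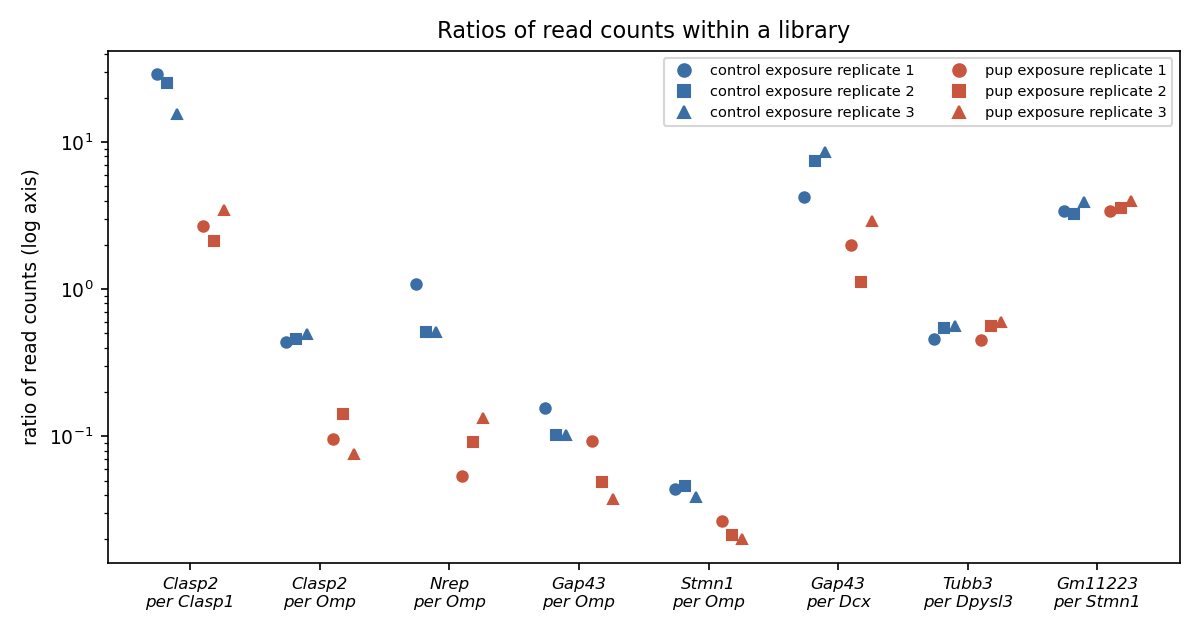
Ratios of raw read counts of gene pairs within each library, on a log axis; blue symbols are control exposure, red symbols pup exposure, and the symbol shape gives the replicate number. Clasp2 per Clasp1 lies at 15.6 to 29.0 in the control libraries and 2.14 to 3.48 in the pup libraries, while Tubb3 per Dpysl3 and Gm11223 per Stmn1 overlap.

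Other genes of the same cell biology were taken from lists written with earlier results of these data known, without the 10 genes. Among 18 tested genes of growth cones and axon growth, 10 were above 0 and 8 below on the log2 scale, with a median of 0.057 that ran from -0.15 to 0.21 with single libraries left out. edgeR, DESeq2 and limma-voom each called 0 of them, and 1 was higher and 1 lower before adjustment (p under 0.05). The higher gene was Dpysl2, the CRMP2 relative of Dpysl3, with 284, 146 and 194 CPM in the control libraries and 238, 1266 and 538 CPM in the pup libraries (log2 fold change 1.71, SE 0.57, edgeR adjusted p = 0.424). The lower gene was Stmn4, the remaining stathmin, with 164, 96.3 and 37.7 CPM and 19.7, 47.1 and 60.7 CPM (-1.23, SE 0.55, adjusted p = 0.450). Both overlapped between groups, and pup replicate 2 set the height of Dpysl2.

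The list of plus-end and lattice microtubule proteins also held genes of other roles, such as the kinase Gsk3b and the minus-end protein Camsap3. Among its 36 genes, 27 had a positive log2 fold change, with a median of 0.33, which ran from 0.21 to 0.47 with single libraries left out. In 6 of them every pup library lay higher, and in 1 lower. edgeR called 0, with 4 higher and 0 lower before adjustment (p under 0.05), limma-voom called 0 and DESeq2 called 1 higher. That gene was Gsk3b, a kinase known to phosphorylate CLASP proteins and weaken their hold on microtubules. It had 124, 128 and 134 CPM in the control libraries and 272, 547 and 271 CPM in the pup libraries (log2 fold change 1.5, SE 0.41, edgeR adjusted p = 0.395, DESeq2 adjusted p = 0.0332). Macf1, a spectraplakin that joins microtubules to actin, had 40.3 to 53.0 CPM and 54.4 to 142 CPM (log2 fold change 0.98, SE 0.41, edgeR adjusted p = 0.447). The remaining genes of the 4 were Slain2, a plus-end protein (0.96), and Map2, which binds along dendritic microtubules (1.05). Map1b, an axonal microtubule protein with the highest level per kilobase in the list, stood at 1848 ± 807 and 1842 ± 1287 CPM (SD, n = 3 each). Set beside this list, whose median was above 0, Clasp2 at -2.37 lay below all 36 log2 fold changes. The lowest of the 36 was that of Camsap3, a minus-end protein (-1.78, overlapping between groups), named after its value was seen. Clasp2 was chosen with its difference already known, so its place beside the list is a description only.

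Most tubulins and their folding cofactors had values below 0. Of 19 tested, 15 had a negative log2 fold change, with a median of -0.51 (-0.49 to -0.39 with single libraries left out, -0.21 with library totals only), and 5 lay lower in every pup library. edgeR, DESeq2 and limma-voom called 0 of them, and 1 was lower at an unadjusted p under 0.05. That was Tbcb, a cofactor of alpha-tubulin folding, with 138, 128 and 161 CPM in the control libraries and 102, 49.3 and 84.6 CPM in the pup libraries (log2 fold change -0.86, SE 0.39, edgeR adjusted p = 0.450). Tuba1a, the main alpha-tubulin of young neurons, had 696 ± 48.7 and 523 ± 58.0 CPM and Tubb5, a broadly expressed beta-tubulin, 183 ± 21 and 123 ± 15.5 CPM (SD, n = 3 each), both lower in every pup library. Proliferation genes, which include Tubb5, were below 0 in 8 of 10 with a median log2 fold change of -0.55, and 0 were called by any of the 3 tools or passed an unadjusted p of 0.05.

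Transcription factors and other genes of progenitors and neuronal specification were mostly above 0, unlike Gap43. Of 15 tested, 11 had a positive log2 fold change, with a median of 0.34 (0.19 to 0.62 with single libraries left out). In 4 genes all pup libraries lay higher: Ebf1, Ebf2 and Ebf3, factors of olfactory neuron differentiation, and Sox11, a factor of immature neurons (log2 fold change 1.85) named after its value was seen. Ebf2 had 48.1, 55.0 and 43.0 CPM in the control libraries and 68.8, 167 and 75.8 CPM in the pup libraries (log2 fold change 1.09, SE 0.42, edgeR adjusted p = 0.424). Gng8, a G protein subunit of immature vomeronasal neurons, had 331 ± 69.4 and 255 ± 88.8 CPM (SD, n = 3 each) and overlapped. edgeR, DESeq2 and limma-voom called 0 of the list, with 3 higher and 0 lower before adjustment (p under 0.05). Neurod2 had no count in any library, and Neurog1, a factor of early progenitors, and Ebf4 were too low to be tested. Of the 15 tested markers of mature vomeronasal neurons, 10 were above 0, with a median of 0.44 (0.39 to 0.63 with single libraries left out), 4 lay higher in every pup library, and edgeR, DESeq2 and limma-voom called 0. Among them Ano2, a calcium-activated chloride channel, had 17.8, 20.9 and 18.3 CPM in the control libraries against 31.9, 48.7 and 38.8 CPM (log2 fold change 1.07, SE 0.36, edgeR adjusted p = 0.421).

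**Figure D4:**
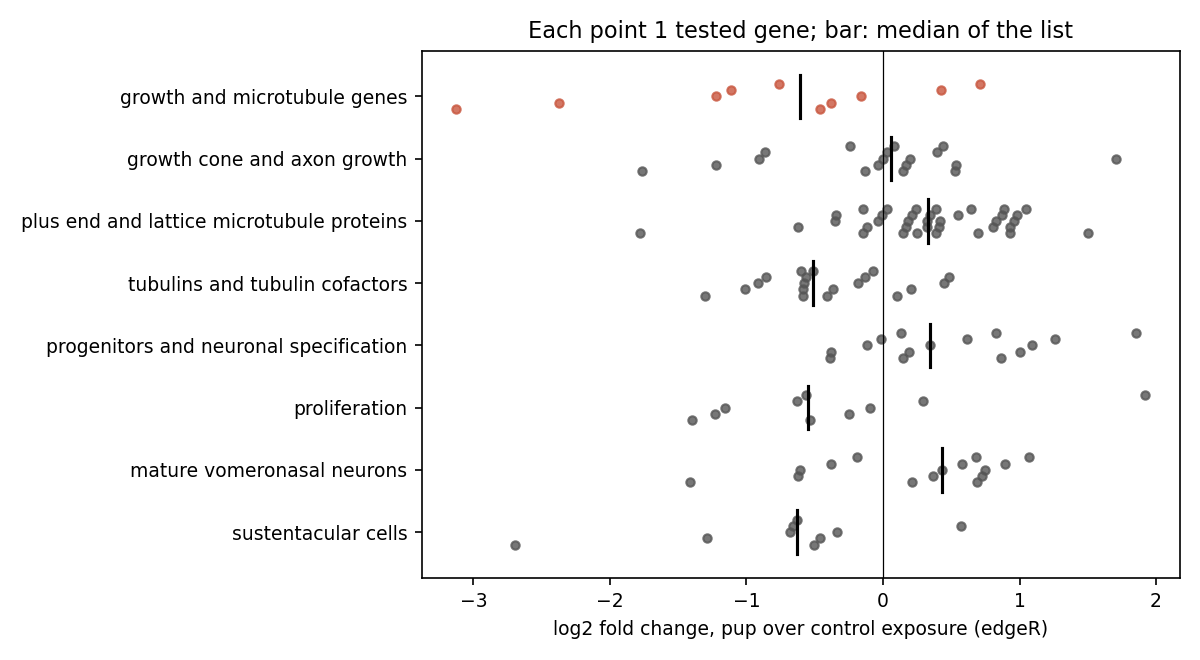
Log2 fold change of pup exposure over control exposure in edgeR for each tested gene of the 10 growth and microtubule genes (red) and of 7 other lists (grey); the black bar is the median of a list. The 10 genes have a median of -0.61 and Nrep has the lowest value shown, while the plus-end and lattice list has a median of 0.33 and the tubulin list one of -0.51.

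Markers of some other cell types differed between groups. Sustentacular cell markers, summed over 9 tested genes, were at 4220 to 4872 CPM in the control libraries and 1812 to 2538 CPM in the pup libraries, 5 of the 9 lay lower in every pup library, and none of the matched markers was at 0. DESeq2 called 1 of them lower, the sustentacular enzyme Cbr2 (3030 ± 178 and 1237 ± 315 CPM, SD, n = 3 each). Red blood cell markers were at 205 to 591 and 52.6 to 168 CPM, with 3 of 4 lower in every pup library. Their part in the lower values of Nrep, Clasp2, Gap43 and Stmn1 was not tested. Glia, which can express Gap43, overlapped at 177 to 189 and 143 to 180 CPM over 8 tested markers, and the sum of 7 immune markers overlapped at 693 to 1819 and 429 to 1428 CPM. Of these 7, 2 lay lower in every pup library. They were Cd68 of macrophages, with 37.9 ± 6.29 and 12.5 ± 3.03 CPM (log2 fold change -1.60, edgeR adjusted p = 0.375, DESeq2 adjusted p = 0.0167), and Cd74 of antigen-presenting cells, with 843 ± 388 and 409 ± 123 CPM (-1.04, edgeR adjusted p = 0.447; SD, n = 3 each). Lyz2, another immune marker, reached 1074 CPM in pup replicate 3 against 11.9 and 24.0 CPM in the other pup libraries. The part of immune cells in the lower values was not tested either. Basal cell markers (4 tested) were at 30.6 to 53.1 and 26.2 to 36.5 CPM. Endothelial markers (7 tested) were at 16.4 to 21.8 and 21.3 to 30.9 CPM. The 5 markers of main olfactory neurons were low in all libraries, at 23.8 to 33.4 and 39.3 to 46.9 CPM, without overlap.

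The genes whose pattern over the 6 libraries was most like that of a member were listed by Pearson's r of log2 CPM among 8341 other genes with a mean of at least 10 CPM. Ik, Cdkn1a and Cfap45 were closest to Gap43 (r = 0.99 each), Stx16, Mettl8 and Etv3 to Dcx (r = 0.98 to 0.99), and Hltf and Strbp were among the closest to Clasp1 (r = 0.99 each). None of these genes is on the growth, microtubule or specification lists. Over 6 libraries many genes reach such values, with 164, 88 and 127 genes over an r of 0.9, so the names are a description only.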

How the data were processed

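For each of 6 libraries the authors deposited raw counts of reads on Ensembl genes, not normalized. Per the labels' protocols, RNA was immunoprecipitated with an antibody to phosphorylated S6 and made into libraries with SMARTer cDNA synthesis and a low-input kit. The submitters' processing notes name GRCm38; which aligner, counter and annotation were used, and whether strand was, is not given in the sources used here. Genes were named from GENCODE M21 (36723 of 38561 IDs).

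Genes were tested by the quasi-likelihood method of edgeR 4.0.16 (R 4.3.3), with filterByExpr (minimum count 10, minimum total 15), TMM scaling and Benjamini-Hochberg adjustment over 15498 genes at 0.05. The fit was checked on simulated data. An SE is the log2 fold change divided by the square root of its F statistic. Alternatives were RLE, upper quartile, library totals, neuron marker scaling, no filter, a stricter filter, DESeq2 1.42.0, limma-voom (limma 3.58.1), the replicate number as a block and each library left out. No library was a duplicate: replicates of a group had a chi-square of 86.2 to 300 for each degree of freedom.

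The members and lists were chosen with earlier results of these data known. Count ratios, promoters, motifs and the Stmn1 copy were chosen after seeing the data, as was counting Stmn1 and Gm11223 as 1 gene. Named were all members, from each list the tested genes with the smallest p and the highest level per kilobase, and the genes most like Gap43, Dcx and Clasp1; exceptions are stated. Of the listed genes the rule allows, the text gives some, picked after their values were seen. Some items the rule allows are not reported here.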

Additional observations from a re-analysis of the deposited data

How the results depend on the processing

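Each of the 10 genes had 15 alternative fold changes (16 for Stmn1), all drawn from the same 6 libraries and so not independent of each other. Of these 151 values, the direction was kept in 147 and reversed in 4, all of Stmn3. Its value was 0.15 with library totals only and 0.034 with neuron marker scaling, and ran from -0.62 to 0.12 with single libraries left out. In 6 of the 151 a member passed the threshold that the main test missed, Nrep and Clasp2 each in DESeq2, limma-voom and edgeR without a filter. In 0 was a call lost, since there was none to lose. Neuron marker scaling was used for fold changes only, and no calls were made under it. Over all genes the number called was 0 higher and 0 lower in edgeR, also with each library left out and the stricter filter. The same held under RLE, upper quartile and library total scaling. The numbers were 50 and 77 in DESeq2, 1 and 7 in limma-voom, and 61 and 59 without a filter. The cause of these differences was not tested. With the replicate block the counts were 0 and 0, and the adjusted p was 0.30 for Clasp2 and 0.507 for Nrep. Same-numbered libraries did not deviate together in every pair (r of their deviations from the group means -0.035, 0.18 and 0.075). The labels do not say whether same-numbered libraries were prepared together, and these values cannot tell. Counting Gm11223 with Stmn1, chosen after seeing the data, raised the level of Stmn1 from 19.3 to 87.0 CPM per kilobase in the control libraries and from 8.94 to 41.5 in the pup libraries. The lowest raw count of a member in a library was 59, for Dcx, and how far depth limits single members was not tested. Group and depth cannot be told apart, since every pup library was deeper.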
